A study of Homo sapiens with 47 samples.

Results

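The libraries described here are the mesenchymal and epithelial fractions collected at passage 5 (P5) from differentiating human embryonic stem cells, labelled P5_MES and P5_EPI, with 3 libraries each. They were chosen by these labels and paired by replicate number, and they are 6 of the 47 libraries of the series. The series follows WA09, an established embryonic stem cell line also called H9, through neuromesodermal progenitor-like cells at 36 h to cultures of pre-neural progenitors and neural crest. Both fractions came from the same cultures and so share 1 genotype and 1 medium: N2B27 without vitamin A, supplemented with CHIR-99021 (a GSK3 inhibitor that activates WNT signalling), rhFGF2, AGN193109 (an inverse agonist of retinoic acid receptors) and Y-27632 (a ROCK inhibitor). The fractions were separated with TrypLE, a dissociation enzyme, by how readily cells came off the dish. They were therefore enriched and not pure, and a single cell line limits how far they stand for other cells.  The expected counts summed to 61252964, 54327233 and 49545981 in P5_EPI replicates 1 to 3 and to 48535989, 46558218 and 47189307 in P5_MES.

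Neural crest cells arise at the edge of the neural plate, leave the epithelium and migrate as mesenchyme. In such a transition cells give up apical junctions, exchange cadherins, build an actin cytoskeleton suited to movement and secrete an interstitial matrix of collagens and proteoglycans. The epithelium they leave keeps tight junctions, desmosomes and a basal lamina, and in the posterior embryo it carries the HOX code that records position along the body axis. The question of the comparison is which of these gene classes differ between fractions of the same culture, beyond the signalling and crest genes.

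The labels were first set against marker genes. Changes are given as log2 fold changes of P5_MES over P5_EPI, where a positive value is higher in P5_MES, followed by ± the approximate standard error (SE, n = 3 pairs). Normalized counts are rounded expected counts divided by a size factor for each library. SOX2, a transcription factor of neural progenitors, had 14796, 11795 and 10162 normalized counts in P5_EPI replicates 1 to 3 and 5296, 4164 and 1943 in P5_MES. CDX2, a caudal transcription factor, had 18238, 13411 and 11354 in P5_EPI and 6308, 6252 and 2096 in P5_MES. The groups did not overlap for either gene, yet neither was near 0 in P5_MES. SOX10, a defining factor of migrating crest, had 29.1, 47.5 and 139.5 normalized counts in P5_EPI and 196.2, 413.3 and 1418.5 in P5_MES. It was higher in P5_MES in every pair, while P5_EPI was not free of it. Of the crest markers, 9 of 12 tested were higher in P5_MES under the 5% rule defined below and 1, PAX3, was lower (-1.02 ± 0.07), at the edge of the 2-fold minimum. Leaving out any 1 of the 3 replicates removed the PAX3 call, and its estimate stayed below 0. Of the epithelial markers, 5 of 10 tested were lower in P5_MES and 0 higher. CDH1, the cadherin of most epithelia, was nearly absent from both fractions, with 4.9, 11.9 and 5.3 normalized counts in P5_EPI and 1.8, 4.9 and 1.9 in P5_MES, and it did not pass the low count filter. TJP1 and OCLN, components of tight junctions, were not called (0.08 ± 0.05 and -0.05 ± 0.15 on the log2 scale). Most called markers were thus on the side that the labels name, and CDH1 was near 0 in the fraction labelled epithelial. In the unseparated P5 cultures of replicates 1 to 3, SOX10 had 63.2, 124 and 767.7 normalized counts and SOX2 12354, 9624 and 7783.

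**Figure D1:**
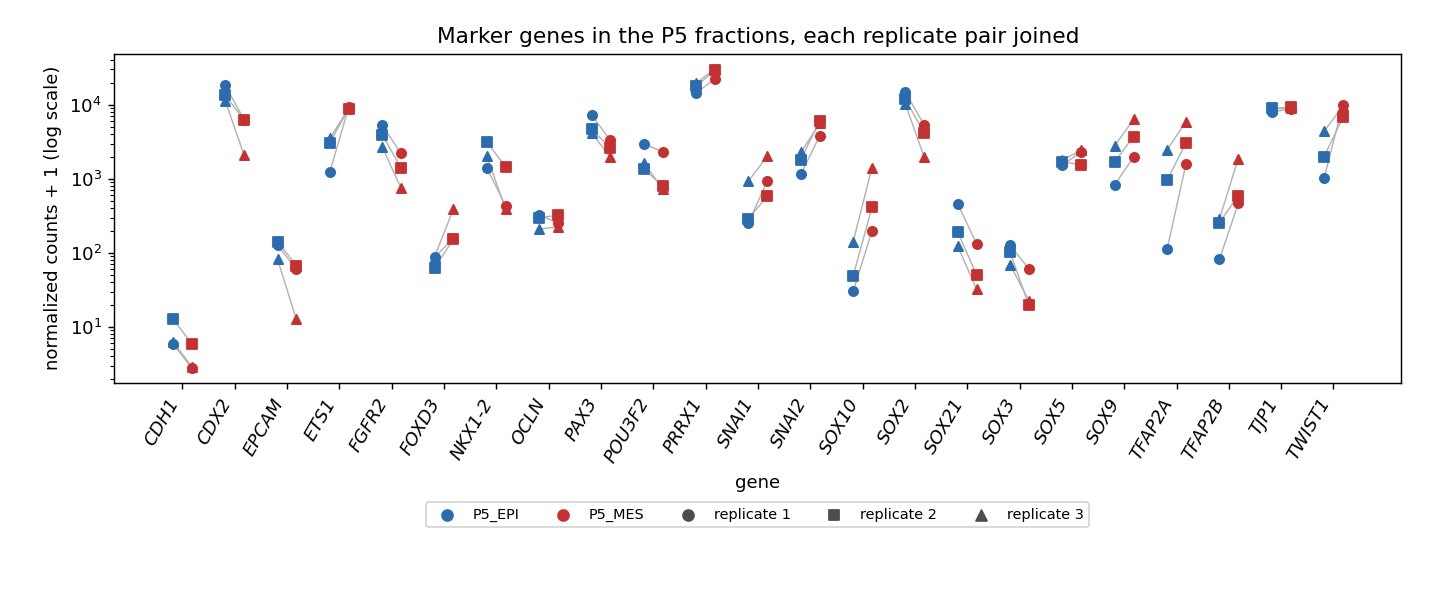
Normalized counts plus 1 on a log axis for the epithelial and crest markers, with P5_EPI in blue, P5_MES in red, 1 symbol per replicate number and a line joining each pair. SOX10 rises along all 3 lines and CDX2 falls along all 3, while TJP1 lies level.

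At the planned threshold, a false discovery rate (FDR) under 1%, a difference of 2-fold or more and 100 or more normalized counts on average over the 6 libraries, the edgeR quasi-likelihood test called 0 of 17664 genes in either direction, 0% of those tested. The smallest adjusted p was 0.0105, so the threshold was missed narrowly, in a paired fit with 2 residual degrees of freedom. DESeq2 on the same genes and thresholds called 495 genes higher in P5_MES and 445 lower. At an unadjusted p under 0.05, 562 genes were higher in P5_MES and 454 lower by at least 2-fold with that mean. With FDR under 5%, 525 genes (2.97% of those tested) were higher in P5_MES and 425 (2.41%) were lower, 950 (5.38%) in all. The 5% threshold is a second setting whose use to name and count genes was chosen after the 1% threshold had called none, and every count of called genes that follows rests on it. It also rests on the pairing and on replicate 2: without the replicate block, or without replicate 2, the edgeR test called 0 genes in either direction at 5% as well. The median log2 fold change over all genes tested was 0.0014. In bulk RNA, fewer cells of a type and less RNA of a gene per cell cannot be told apart, and that holds for each gene below.

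**Figure D2:**
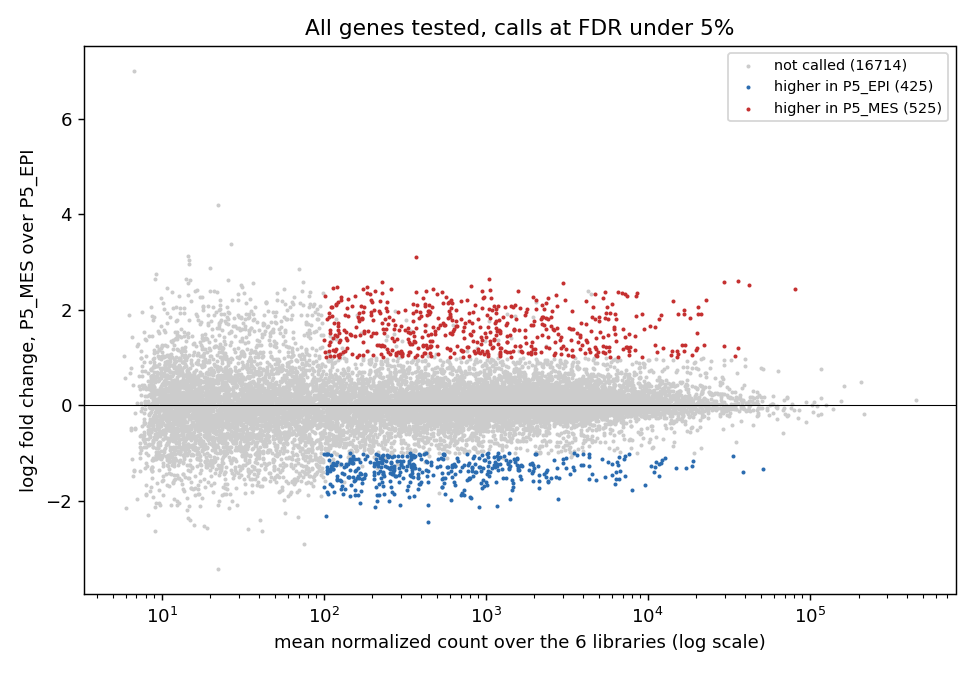
Log2 fold change of P5_MES over P5_EPI against the mean normalized count over the 6 libraries (log axis), 1 point per gene tested. The 525 genes called higher in P5_MES are red, the 425 called higher in P5_EPI are blue and the rest are grey.

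The genes with the largest rises in P5_MES were led by SOX10, at 3.12 ± 0.15 on the log2 scale (adjusted p = 0.0105). ANGPT1, which encodes a ligand of the TEK receptor, had 63.8, 237.7 and 762.4 normalized counts in P5_EPI and 730.1, 1444 and 3080 in P5_MES, a log2 fold change of 2.65 ± 0.29. Its replicates differed widely within each fraction, and the P5_EPI library of replicate 3 was above the P5_MES library of replicate 1, so that the rise is seen within pairs and the groups overlap. THBS1, a matricellular glycoprotein, had 477, 1573 and 666.8 in P5_EPI and 4845, 7741 and 2674.5 in P5_MES, without overlap. Another 4 of the leading 10 belong to the matrix and are described with it (COL12A1, COL1A2, LUM and KERA), and 1 has no gene symbol. ADM, which encodes a vasoactive peptide, and MAMDC2 rose by 2.48 and 2.48. In the other direction ADAMTS18, a secreted metalloproteinase, had 1175, 623.5 and 357.9 normalized counts in P5_EPI and 375.4, 92.4 and 35.8 in P5_MES, a log2 fold change of -2.45 ± 0.34. SYNPR, a synaptic vesicle protein, FOXB1, a forkhead factor, ASCL2, a basic helix-loop-helix factor, and TESC, a calcium-binding protein, changed by -2.14, -2.12, -2.09 and -2.05. TRGC2, a T cell receptor constant segment that resembles its neighbour TRGC1, also fell, and reads of such copies may be divided between them.

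Fibrillar and beaded collagens make up the load-bearing network of loose connective tissue. Of 38 collagen genes tested, 12 were called higher in P5_MES and 1, COL8A1, lower, with a median log2 fold change of 0.59. COL1A2, a chain of type I collagen, had 2475, 10969 and 18924 normalized counts in P5_EPI and 38010, 52365 and 55482 in P5_MES. COL6A3, of beaded type VI collagen, had 7344, 37681 and 48319 in P5_EPI and 123331, 146597 and 123902 in P5_MES. Both genes were far lower in the P5_EPI library of replicate 1 than in those of replicates 2 and 3, and no P5_EPI library reached the lowest of P5_MES. COL12A1, which binds to fibril surfaces, had 1622.5, 23088 and 14675 in P5_EPI and 28730, 106406 and 41785 in P5_MES, with the replicate 2 pair highest. COL1A1, COL3A1, COL6A1, COL6A2 and COL11A1 were called higher too. Summed over the list, collagen transcripts came to 881.43, 1775 and 1944 TPM (transcript abundance scaled by gene length and by library) in P5_EPI replicates 1 to 3 and 2858, 4137 and 3447 in P5_MES.

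Small leucine-rich proteoglycans space and regulate collagen fibrils. LUM, the most abundant gene of its list at a mean of 1327 TPM, had 2109, 19858 and 29683 normalized counts in P5_EPI and 37630, 83803 and 79529 in P5_MES. KERA, its relative best known from the cornea, had 77, 319.3 and 465 in P5_EPI and 1302, 1409 and 1299.5 in P5_MES, and BGN had 3350, 7991 and 11950 in P5_EPI and 27334.5, 24445 and 25949 in P5_MES. In each of these genes the P5_EPI library of replicate 1 was lowest. Of the proteoglycan and hyaluronan genes, 11 of 30 tested were called higher and 1 lower. The hyaluronan synthases were divided, with HAS2 higher in P5_MES and HAS3 lower. HAS3 was the only lower call of the list. No lower call was left without replicate 3 or with the 12 fraction libraries in 1 fit. Among elastic fibre genes and crosslinking enzymes 7 of 24 were higher and 0 lower, including FBLN5 at 2.07 ± 0.24, EMILIN2 at 2.15 ± 0.41 and LOX, an enzyme that crosslinks collagen and elastin, at 1.52 ± 0.22.

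Laminins belong to the basal lamina, on which epithelia rest, yet 6 of 12 laminin and nidogen genes tested were called higher in P5_MES and 0 lower. LAMA4, a chain of mesenchymal and vascular laminins, had 97.8, 976 and 428.1 normalized counts in P5_EPI and 523, 4627 and 1214 in P5_MES. It was higher in P5_MES in each pair, and replicate 2 was highest in both fractions. LAMA2, LAMC3, NID2, LAMB1 and LAMC1 were the other members called. Integrins, the receptors for these proteins, were mixed: ITGA9, ITGA1 and ITGA4 were higher and ITGA7, a laminin receptor, was lower (-1.23), while ITGB1, the most abundant, differed by 0.48 ± 0.07, under the fold minimum. The lower count of the integrin list was 2 without replicate 1 and 0 without replicate 3.

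Of the matricellular genes 3 were called higher and 4 lower among 19 tested. These counts became 4 higher and 2 lower without replicate 1, and 5 higher and 2 lower without replicate 3. TGFBI, an adhesion protein of the matrix, had 44938, 71898 and 44568 normalized counts in P5_EPI and 18518, 41445 and 9930 in P5_MES, and SMOC1, SPARCL1 and TNC were lower with it. SPARC, at a mean of 2606 TPM the most abundant of the list, was not called (-0.58 ± 0.15, adjusted p = 0.0529). Proteases and their inhibitors showed opposite members of the same family: TIMP3 had 1559, 7589 and 8807 in P5_EPI and 13116, 30760 and 23585 in P5_MES, while TIMP4 had 115.1, 1000.5 and 583.4 in P5_EPI and 62.1, 426.9 and 113.2 in P5_MES. MMP14, a membrane-bound collagenase, was called higher and MMP2 was not called. Of 11 serpins tested none was called in either direction.

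Actin filaments slide on myosin to give cells tension and movement. Of 36 actin and contractile genes tested, 11 were called higher in P5_MES and 0 lower, and 33 had a positive log2 fold change, with a median of 0.93. TAGLN, an actin-binding protein of smooth muscle, had 1647, 2815 and 3397 normalized counts in P5_EPI and 14312, 12883.5 and 9738 in P5_MES. MYL9, a myosin regulatory light chain, had 2558, 3572 and 5162 in P5_EPI and 13899, 13227 and 12191 in P5_MES, and TPM1, a tropomyosin, 3915, 10824 and 12800 in P5_EPI and 19466, 41708 and 34188 in P5_MES. None of these groups overlapped. ACTB, at a mean of 5752 TPM the most abundant, differed by 0.48 ± 0.07 with an adjusted p of 0.0171, below the fold minimum. ACTA2, CNN1 and MYLK, also known from smooth muscle, were among those called. MYOCD, a coactivator of smooth muscle genes, had 588, 1786 and 2768 normalized counts in P5_EPI and 6107, 6990 and 6660 in P5_MES, and the pericyte genes PDGFRB and RGS5 rose by 1.84 and 2.25. DES, the muscle intermediate filament, went the other way at -1.51 ± 0.32.

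YAP and TAZ are coactivators that act through TEAD factors and answer to tension and spreading. Of their target list 5 of 22 genes tested were called higher (CCN2, RBMS3, IGFBP3, GADD45B and CCN1) and 2 lower (TGFB2 and MYOF). CCN2, the textbook target, had 308.6, 868.2 and 564.1 normalized counts in P5_EPI and 1406, 3861 and 2106.5 in P5_MES, a log2 fold change of 2.09 ± 0.08. Its promoter is shown because, of the 4 genes called higher that had a window, it alone held the letters GGAATG or the reverse complement CATTCC, the core bound by TEAD factors. The window is from RefSeq on GRCh38.p14 (chr6:131951323-131951622, minus strand, 300 bases, 5′ to 3′), with the motif in capitals.
CCN2: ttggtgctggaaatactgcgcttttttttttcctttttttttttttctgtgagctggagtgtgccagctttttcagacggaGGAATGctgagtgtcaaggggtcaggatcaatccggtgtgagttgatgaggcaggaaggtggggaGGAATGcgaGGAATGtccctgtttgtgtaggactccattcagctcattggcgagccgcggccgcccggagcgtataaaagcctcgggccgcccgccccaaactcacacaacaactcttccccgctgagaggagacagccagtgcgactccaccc
The letters were searched on both strands of windows that reach from before to just past each gene's start. They were in the windows of 16.7% of all 27305 genes with a window, 15.2% of the 12216 tested genes matched by symbol, 22.5% of 396 matched genes called higher in P5_MES and 15.6% of 294 called lower. A match of letters is a description of the window and not a binding site.

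Desmosomes and tight junctions hold epithelial cells together and seal them. All 4 called desmosome and gap junction genes, of 17 tested, were lower in P5_MES: PKP2, DSC3, DSG2 and DSC2. Without replicate 3 the lower count of this list was 2. DSG2, a desmosomal cadherin, had 19090, 17576 and 15550 normalized counts in P5_EPI and 10511, 9421 and 5104 in P5_MES, and DSC3 had 5064, 5153 and 4713 in P5_EPI and 2322, 2637 and 1111 in P5_MES. The fractions did not overlap in either gene, and replicate 3 of P5_MES was lowest. GJA1, the main gap junction gene at a mean of 574.98 TPM, was not called (-0.13 ± 0.11). Of 31 tight junction and polarity genes, 6 were lower, with CLDN1, F11R and the apical polarity genes CRB2, PRKCZ and PARD6B among them, and 1, SHROOM3, was higher. CRB2 had 7302, 7534 and 6326 in P5_EPI and 3060, 3381 and 1199 in P5_MES. Another 13 members were at or under 3 counts in every library, GRHL2 and CLDN7 among them.

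Cadherins give cells their sorting identity. CDH2, the neural cadherin, had 25933, 29575.5 and 22718 normalized counts in P5_EPI and 13176, 14662 and 6236 in P5_MES, and CDH4 and CDH20 were lower as well (-1.63 and -1.48). No classical cadherin of 14 tested was called higher. CDH11, a mesenchymal cadherin and the most abundant of the list at 971.76 TPM, rose in the estimate by 0.78 ± 0.13, below the fold minimum. The protocadherin list, taken by name and so with antisense genes and pseudogenes, had 53 of 64 members above 0, with 7 called higher and 2 lower. The higher count became 4 without replicate 1, and no lower call was left without replicate 3. PCDH7 had 1090, 2930 and 6167 in P5_EPI and 11987, 11608 and 16692.5 in P5_MES, while PCDH19 had 13800, 20606 and 14596 in P5_EPI and 7551, 10381.5 and 3956 in P5_MES. The clustered protocadherins share exons, so that counts of their members, such as PCDHA10 and PCDHGA10, are uncertain. Among keratins and other intermediate filaments, 43 of 63 genes were at or under 3 counts in every library, and the 3 called, all lower, were DES and the neuronal INA and NEFH. VIM, the mesenchymal filament, was at 0.76 ± 0.15 (adjusted p = 0.0273) and so below the fold minimum.

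**Figure D3:**
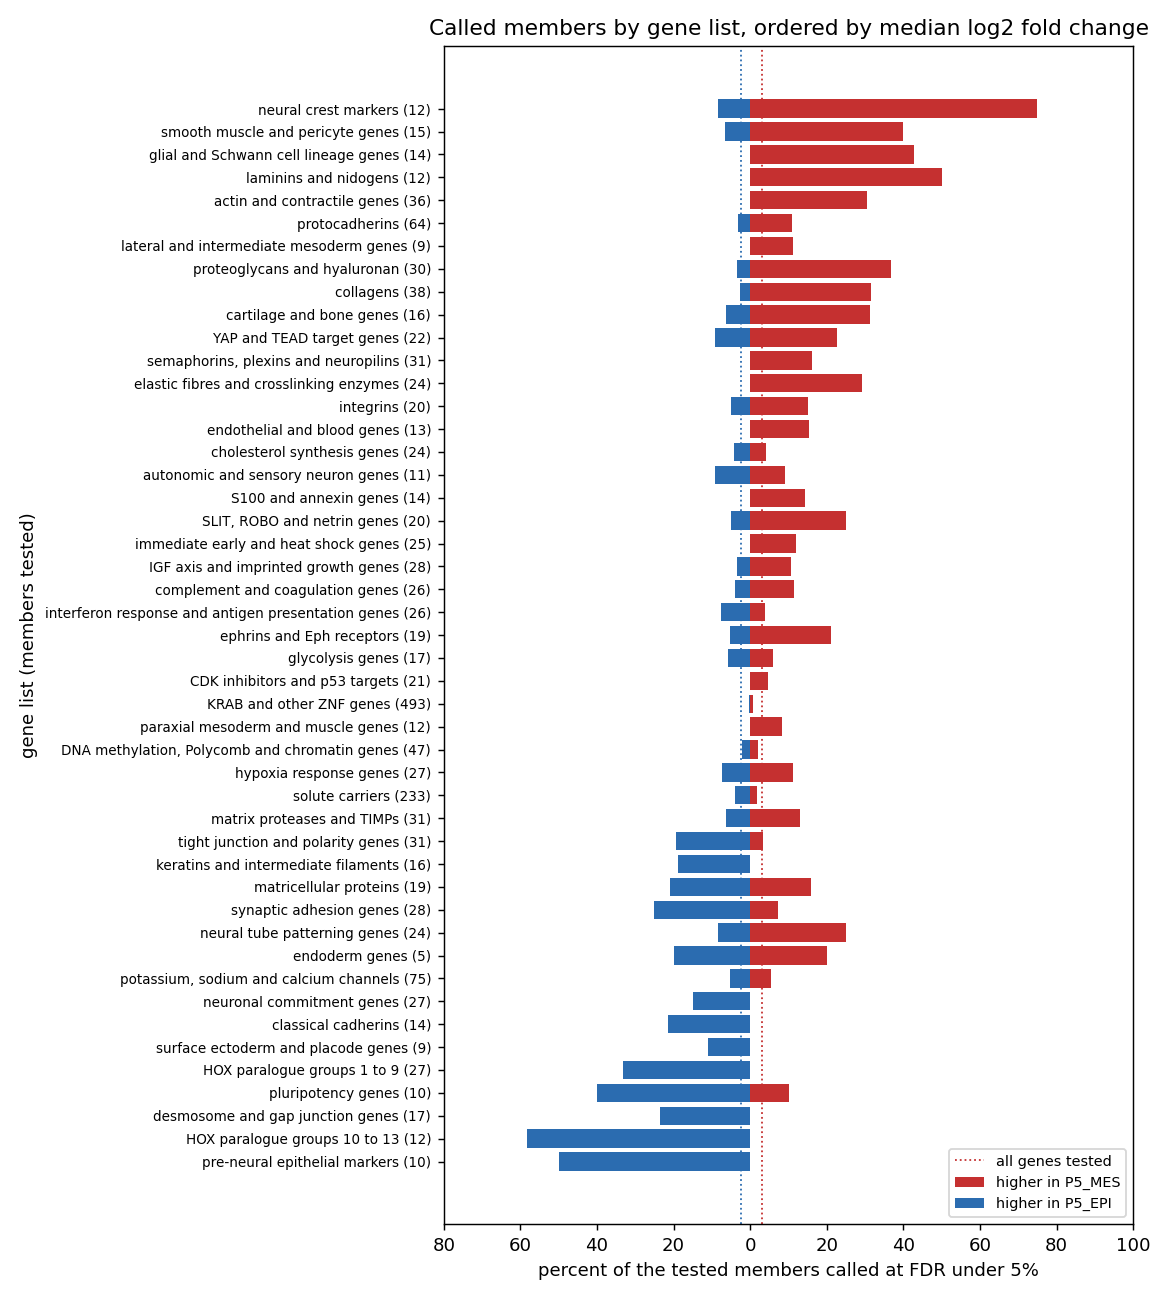
Share of the tested members of each gene list called higher in P5_MES (right, red) or higher in P5_EPI (left, blue) at FDR under 5%, with the shares over all genes tested as dotted lines. Lists without a call are left out, and lists are ordered by their median log2 fold change, with pre-neural epithelial markers and HOX paralogue groups 10 to 13 at the bottom and neural crest, smooth muscle and glial lists at the top.

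Guidance molecules steer migrating crest cells and growing axons. Of 31 semaphorin, plexin and neuropilin genes tested, 5 were called higher (PLXNA4, SEMA3C, PLXNA2, SEMA5A and NRP2) and 0 lower. SEMA3C, a secreted ligand, had 147.7, 203.6 and 179.9 normalized counts in P5_EPI and 406.9, 511.5 and 600.9 in P5_MES. NRP2, a receptor, had 6487, 9318.5 and 15344 in P5_EPI and 15569, 18253 and 25815 in P5_MES, where the P5_EPI library of replicate 3 lay close to the lowest of P5_MES. Among ephrins and their receptors EFNB2 and EFNA5 were higher, as was EPHA3 (2.33 ± 0.50), while EPHA5 was lower (-1.83 ± 0.26). In the SLIT, ROBO and netrin list the paralogues split: SLIT3 had 1853, 4805 and 6276 in P5_EPI and 7944.5, 13374 and 11637 in P5_MES and was called higher, and SLIT2 was called lower. SLIT2 was the only lower call of the list. No lower call was left without replicate 3, where the higher count went from 5 to 8, or with the 12 fraction libraries in 1 fit. UNC5C and UNC5D, netrin receptors, rose by 2.25 and 1.56.

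Synaptic adhesion proteins join neurons and their partners. Here 7 of 28 tested were called lower in P5_MES and 2 higher. The lower count became 4 without replicate 1 and also 4 without replicate 3. CADM1, the most abundant, had 12829, 9741 and 8382 normalized counts in P5_EPI and 5643.5, 5430 and 4040 in P5_MES, and NRXN2, NRCAM, NFASC, CNTNAP2 and CNTNAP4 were lower with it. CNTN2 and L1CAM, adhesion proteins of axons and glia, were the exceptions, at 1.85 ± 0.21 and 1.73 ± 0.22. Of 75 channel genes 4 were higher and 4 lower. The pore genes of L-type and T-type calcium channels, CACNA1C and CACNA1G, rose by 2.26 and 2.11, and the potassium channel KCNK10 changed by -1.89. Of 233 solute carriers 4 were higher and 9 lower, and 5.38% of all genes tested were called. Among single carriers, SLC7A11, the cystine and glutamate exchanger, had 1086, 2724 and 3769 in P5_EPI and 8911, 7778 and 9041.5 in P5_MES, and SLC18A1, a vesicular monoamine transporter, 601.2, 588.6 and 396.5 in P5_EPI and 179.1, 201.3 and 64.8 in P5_MES.

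HOX genes lie in 4 clusters and are numbered by paralogue group, from anterior (1) to posterior (13). All 39 were tested, 16 were called lower in P5_MES and 0 higher, and 34 were lower in all 3 pairs. Over all 17664 genes tested, 2.41% were called lower and 8871 had an estimate above 0. The number lower in all 3 pairs was not counted over all genes, so the 34 has no background beside it. Groups 1 to 9 had 9 called of 27 and a median of -0.77. Groups 10 to 13 had 7 called of 12 and a median of -1.41. HOXC10 had 15905, 18810.5 and 16182 normalized counts in P5_EPI and 6622, 9271 and 3386 in P5_MES, HOXD11 916, 3956 and 2398 in P5_EPI and 416.8, 1853 and 421.9 in P5_MES, and HOXB9 28220, 25037 and 19668 in P5_EPI and 11673, 12574 and 6007 in P5_MES. No P5_MES library reached the P5_EPI library of its own pair in these genes, but replicate 2 of P5_MES exceeded the P5_EPI library of replicate 1 in HOXD11. The pairs were unequal: in the posterior groups of the C and D clusters replicate 3 fell furthest, as with HOXD11 at -1.13, -1.09 and -2.50 on the log2 scale in pairs 1, 2 and 3. HOXC5 was the only member with a fitted value above 0, at 1.13, 0.32 and 0.64, and was not called. HOXD1, HOXD8 and HOXD9 were not lower in pair 1 and HOXB5 not in pair 3. HOX genes overlap antisense and read-through transcripts, and the strand setting of the counting was not given in the sources used here, so that single members are uncertain.

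**Figure D4:**
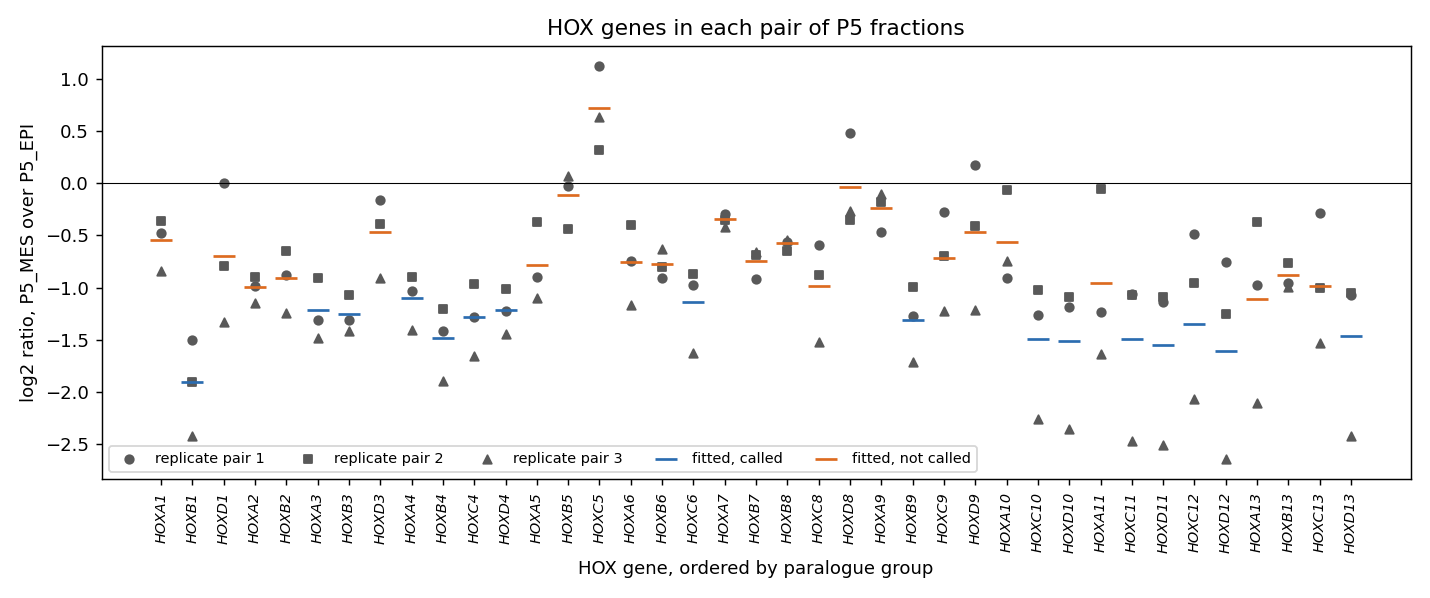
Log2 ratio of P5_MES over P5_EPI for the 39 HOX genes, ordered by paralogue group, with 1 symbol per replicate pair and a bar for the fitted value (blue where called, orange where not). Nearly all points are below 0, HOXC5 lies above it, and replicate pair 3 is lowest for the posterior C and D cluster genes.

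Of 10 pluripotency genes tested, 4 were called lower in P5_MES and 1 higher. LIN28A, an RNA-binding protein of early development, had 77881, 72939 and 69303 normalized counts in P5_EPI and 31875, 38854 and 18999 in P5_MES, and SALL4, a zinc finger factor, had 16886.5, 16019 and 14404 in P5_EPI and 7395, 7647 and 4419 in P5_MES. DNMT3B, a de novo DNA methyltransferase, had 7796, 7180 and 6485 in P5_EPI and 3678, 3615 and 2555.5 in P5_MES, and TERT, the telomerase catalytic subunit, was lower at -1.30 ± 0.26. DPPA4 was the exception and was higher at 1.33 ± 0.11. The chromatin list had a median of 0.0263 over 47 genes tested, of which HDAC9 was called higher and DNMT3B lower. Neural tube patterning genes were divided. ZIC1, a roof plate and crest factor, had 4031, 5416 and 11174 in P5_EPI and 27371.5, 18003 and 25660 in P5_MES, and ZIC4, LMX1B, NKX6-1 and EN1 were higher with it, while FOXB1 and GBX2 were lower. Neuronal commitment genes had 4 members called lower of 27 tested, NEUROG2, DLL1, INA and RBFOX3.

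Several housekeeping classes gave no call at the 2-fold minimum. Of 75 nuclear genes of oxidative phosphorylation, 81 cytosolic ribosomal protein genes, 37 replication genes and 32 mitosis genes tested, none was called in either direction. Without the fold minimum, 11 replication genes were called lower and 0 higher, where 1351 of 17664 genes were lower and 1939 higher overall. The other 3 lists had 3, 3 and 1 higher and 3, 0 and 2 lower, in the order given. The 4 medians were 0.0096, 0.0521, -0.17 and -0.0366 on the log2 scale. Of the replication genes 3 were above 0, and of the ribosomal protein genes 72. Glycolysis genes had a median of 0.0555, with PFKP, the platelet phosphofructokinase, called higher (1.69 ± 0.27) and ENO2, the neuronal enolase, lower (-1.13 ± 0.21). In cholesterol synthesis 23 of 24 members were above 0, 18 of them called higher without the fold minimum, and TM7SF2, a sterol reductase, was called lower (-1.20 ± 0.15). Mitochondrially encoded transcripts had no call among 13 genes, and their share of counts was 3.44%, 2.20% and 2.20% in P5_EPI and 3.25%, 1.58% and 1.96% in P5_MES. It was lower in P5_MES in each pair, and replicate 1 was highest in both fractions.

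Secreted and stress-related classes gave scattered calls. IGFBP7, IGFBP3 and IGFBP4, which bind insulin-like growth factors, rose by 2.33, 1.84 and 1.43, and IGFBPL1 changed by -1.32. Of the S100 and annexin genes 13 of 14 tested were above 0 and 2 were called, S100A11 and ANXA1. S100A11 had 425, 1252 and 1563 normalized counts in P5_EPI and 2844, 3798 and 3381 in P5_MES. HLA-B and HLA-C, class I antigen presentation genes whose reads can be shared between close relatives, were lower at -1.06 ± 0.22 and -1.26 ± 0.21, and IFI6 was higher. Complement and coagulation genes C7, C1S and TFPI were higher and CD55, a complement inhibitor, was lower. Of 27 hypoxia genes tested, 3 were called higher and 2 lower, and no lower call was left without replicate 3. Of 25 immediate early and heat shock genes tested, 3 were called higher and 0 lower, where 2.97% of all genes tested were called higher. The list had 18 members above 0 and a median of 0.27. The 3 called were the immediate early genes IER3, ZFP36 and KLF6 (1.51, 1.37 and 1.09). Dissociation was part of how both fractions were obtained. Its part in these values was not tested.

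Markers of other lineages show what else the fractions could hold. Glial and Schwann lineage genes had 6 of 14 tested called higher, and the list summed to 58.22, 63.02 and 58.64 TPM in P5_EPI and 76.42, 141.98 and 197.73 in P5_MES. Paraxial mesoderm and muscle genes summed to 10.05, 6.78 and 12 TPM in P5_EPI and 17.74, 10.83 and 16.31 in P5_MES, and MYF5, MYOD1, MYOG and PAX1 were at or under 3 counts in every library. MEOX2, the most abundant of that list and its only call, was higher (2.36 ± 0.52), with 8.3, 43.6 and 198.3 normalized counts in P5_EPI and 154.8, 219.8 and 488.7 in P5_MES. Of the endothelial and blood list TEK and CD34 were called higher, while its most abundant gene, EGFL7 at 9.78 TPM, was not called and was lower in all 3 pairs (-0.49 ± 0.21). The list summed to 20.43, 29.91 and 31.06 TPM in P5_EPI and 41.5, 35.37 and 26 in P5_MES, a rise in replicates 1 and 2 and a fall in replicate 3, and EMCN, PTPRC, SPI1 and GATA1 were at or under 3 counts throughout. For endoderm SOX17, FOXA1, FOXA2, AFP and TTR were likewise at or under 3 counts, while CER1 was called higher (1.82 ± 0.27). For lateral and intermediate mesoderm GATA4, GATA6, TBX5 and WT1 were at or under 3 counts, and PRRX2 was called higher (1.59 ± 0.18). That list summed to 191.89, 238.04 and 277.84 TPM in P5_EPI and 309.08, 383.48 and 412.66 in P5_MES. Its most abundant gene was PRRX1, also on the crest list, at a mean of 283.12 TPM. PRRX1 was higher in all 3 pairs but below the fold minimum (0.68 ± 0.05). Cartilage and bone genes had 5 called higher and 1 lower of 16 tested, among them SOX6, PTH1R and MATN3. Of 7 pigment genes tested none was called, and PMEL was at -0.88 ± 0.11. The part of other cell types in the results was not tested.

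Most calls were protein-coding genes, 496 higher and 386 lower of 14182 tested, and most of the 17664 genes tested were protein-coding too. Over all genes tested, 2.97% were called higher and 2.41% lower. Long intergenic RNAs gave 9 higher and 16 lower of 819, and antisense RNAs 8 and 9 of 930. Zinc finger genes of the ZNF series had 3 higher and 1 lower of 493 tested. Library preparation selected polyadenylated RNA, so transcripts without a tail are undercounted.

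The same fractions were collected from the same differentiations at passage 8 (P8). There the edgeR test called 0 of 18049 genes at FDR under 1% and 0 under 5% (0%), with a smallest adjusted p of 0.0923. DESeq2 called 190 genes higher in P8_MES and 17 lower at 1%, and at an unadjusted p under 0.05 edgeR gave 333 and 34. Of the 525 genes called higher at P5, 516 of 525 tested had a positive estimate at P8, with a median of 0.92 against 1.55 at P5. Of those called lower, 394 of 423 had a negative estimate, with a median of -0.52 against -1.32. The P5 medians are of genes chosen for their size at P5, so the smaller values at P8 are no measure of a change with passage. The test of the difference between passages called 0 of 18885 genes at 1% and at 5% (0%), with 70 and 38 at an unadjusted p under 0.05. DESeq2 called 1 at 1%, TNC, a gene named after its value was seen.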

How the data were processed

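The authors deposited 1 RSEM gene table for each of 47 polyadenylated RNA libraries, with expected counts (reads assigned to a gene by likelihood, not whole numbers) and TPM. The submitters' processing notes name cutadapt 1.16, STAR 2.5.2b, RSEM 1.3.0 and GRCh38. The deposited TPM were used only to compare levels between genes and to sum the levels of a list in each library. Of 58051 gene IDs, 56948 matched a current symbol, 57447 matched GENCODE 29 and 604 matched neither.

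Expected counts were rounded to whole numbers and tested with edgeR 4.0.16 (glmQLFit and glmQLFTest, TMM factors, filterByExpr, Benjamini-Hochberg adjustment) in R 4.3.3, with fraction and replicate number as terms. A gene was called at FDR under 1%, a difference of 2-fold or more and 100 or more normalized counts on average. This rule called no gene, so genes were named and lists counted at FDR under 5%, a choice made after that was seen. Normalized counts used TMM size factors over all 47 libraries. Standard errors are approximate, the log2 fold change over the root of F. A floor of 3 counts covers counting error only.

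The series describes both fractions as collected in each experiment. As a check, deviations from the fraction means of same-numbered libraries correlated at 0.67, 0.69 and 0.59. The replicates are 3 differentiations of 1 line. No replicate pair agreed within sampling noise.

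Named genes were the 10 largest changes in each direction that were seen in all 3 pairs, up to 4 called members and the most abundant member of each of 54 lists, and the markers. Members and lists were chosen with earlier results of these data known, and further members were named in the text after their values were seen. DESeq2 1.42.0, other filters, other size factors, other sets of libraries and replicates left out were tried as alternatives. The fits were tested on simulated counts with the same dispersion for every gene and no replicate effect. That simulation therefore did not test how the fits handle differences between replicates.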

Additional observations from a re-analysis of the deposited data

How the results depend on the processing

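At FDR under 1%, edgeR called 0 genes higher in P5_MES and 0 lower, and also with DESeq2 size factors, without the replicate block, with the 12 fraction libraries in 1 fit, and with no mean or fold minimum. The counts higher and lower were 495 and 445 with DESeq2, 507 and 431 without a count filter, 76 and 42 with at least 10 counts in every library, 11 and 2 with all 47 libraries in 1 fit, and 525 and 425 at FDR under 5%. Leaving out a replicate gave 0 to 184 higher and 0 to 125 lower. The cause of these differences was not tested. At P8, DESeq2 called 190 higher and 17 lower against 0 with edgeR, and for the difference between passages 1 against 0.

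At FDR under 5%, chosen after seeing the data, the counts of 525 and 425 became 0 and 0 without the replicate block, so they rest on the pairing among other settings. They became 264 and 262 with the 12 fraction libraries, 100 and 48 with all 47, and 1939 and 1351 with no fold minimum, and the lower count became 658 with no mean minimum. Leaving out a replicate gave 0 to 596 higher and 0 to 394 lower, with 0 in both directions without replicate 2. Several counts of single lists also moved by more than 1.5 times without replicate 1 or without replicate 3. DESeq2, its size factors and both filters kept both counts within 1.5 times. No called named gene changed direction under any alternative. At this depth a gene at or under 3 counts in every library cannot be told from an absent one.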
